A study of Mus musculus with 8 samples.

Results

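The gelsolin family was examined in RNA-seq libraries of cells sorted from the neonatal mouse cochlea. Its members are *Gsn* (gelsolin), *Capg*, *Vil1* (villin), *Avil* (advillin), *Scin* (scinderin, also called adseverin), *Svil* (supervillin) and *Flii* (flightless I), 7 of the 36536 genes in the count tables, taken by their symbols in the NCBIM37 annotation. The members were chosen by the measured levels of *Gsn* in these libraries, which was higher in GFP- cells at P1 but in GFP+ cells at P6. The levels of *Gsn* are therefore given as a description without tests, and counts of members that passed a test refer to the other 6.

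Cells came from mice of the B6;FVB-Tg(Lfng-EGFP)HM340Gsat/Mmucd line at postnatal day 1 (P1) and postnatal day 6 (P6). In this line a bacterial artificial chromosome drives GFP from the *Lfng* regulatory region, which marks most supporting cell types of the organ of Corti, the inner pillar cells being an exception. The brightest cells made up the GFP+ fraction and GFP-negative cells of the dissected tissue the GFP- fraction, with 2 libraries in each of the 4 groups. Cells with weak GFP were not collected. Reissner's membrane and the lateral wall with its stria vascularis were taken off at P1 but only in part at P6, so in the comparisons between ages the age and the extent of dissection cannot be told apart. Every group carried the transgene, the cells were sorted directly after dissociation with no culture or treatment, and nothing in the labels says that the libraries of a group came from separate animals, so p-values measure only the spread between these samples.

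Proteins of the gelsolin family bind actin filaments through repeated gelsolin domains, and most need calcium to do so. Gelsolin, scinderin, villin and advillin can sever filaments and cap their fast-growing ends, whereas Capg caps filaments without severing them. Supervillin and flightless I carry the same domains within larger proteins, supervillin at membranes together with myosin II and flightless I with leucine-rich repeats through which it binds partner proteins. In the organ of Corti, actin fills the stereocilia of hair cells and forms thick bundles and junctional belts in supporting cells.

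The libraries held 17769024 to 67695039 counts on genes, and 21227 to 24199 genes had at least 1 count. The fractions were described by marker genes, whose summed levels are given in counts per 1000000 counts on genes (CPM). Supporting cell markers summed to 8094 to 8627 CPM in P1 GFP+ cells against 454 to 548 in P1 GFP- cells, and to 5239 to 6928 against 473 to 502 at P6. Of these 8 markers, 8 at P1 and 7 at P6 were enriched in GFP+ cells at p-adj (the p-value of edgeR adjusted by Benjamini-Hochberg) under 0.01. Of all genes, 16.6% were higher in GFP+ cells at P1 at this limit, and 12.9% passed it in either direction at P6. The study named these 8 genes among those found in its GFP+ cells, and the *Lfng* regulatory region drives the GFP used for sorting. The counts therefore describe the fractions and do not test the gate. Summed hair cell markers were also higher in GFP+ cells, at 690 to 792 against 399 to 461 CPM at P1. At P6 the sums were 502 to 533 against 343 to 384 CPM. Of these 9 markers, 6 were higher in GFP+ cells at each age at p-adj under 0.01. Not all followed the sum: *Myo6* at P6 was at 250 and 325 CPM in GFP+ cells against 312 and 340 CPM in GFP- cells. The fractions also overlapped for *Slc17a8* at both ages and for *Tmc1* at P1. Fibroblast markers summed to 493 to 546 CPM in P1 GFP+ cells and to 1841 to 3745 CPM in P6 GFP+ cells, against 14522 to 20230 CPM in the GFP- libraries of both ages. *Lum* did not follow this sum at P6, at 765 and 656 CPM in GFP+ cells against 680 and 545 CPM in GFP- cells. The fractions also overlapped for *Otos* at P1 (0.873 and 1.08 against 1.03 and 2.03 CPM). The 2 P6 GFP+ libraries stood apart from each other: replicate 2 held 3.73 times the endothelium, 3.19 times the melanocyte, 2.73 times the smooth muscle, 2.04 times the Schwann cell and 2.03 times the fibroblast marker level of replicate 1, and 0.756 times its supporting cell level. These are ratios of sums. *Prox1* (81.4 and 133 CPM in replicates 1 and 2) and *Notch1* (300 and 475 CPM) were higher in replicate 2, unlike the rest of the supporting cell list. *Lum* (765 and 656 CPM) was lower in replicate 2, unlike the rest of the fibroblast list, and *Dcn* (255 and 267 CPM) was nearly level. *Sox10* of the Schwann cell list was also lower in replicate 2 (340 and 306 CPM). In bulk samples such as these, fewer cells of a type and less RNA per cell cannot be told apart.

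*Gsn* and *Scin* showed the largest differences in level between the ages, and the sequences in front of their annotated starts are shown because a gene count pools the transcripts of all starts. *Gsn* (ENSMUSG00000026879) lies on chromosome 2 at 35111927 to 35163420 (NCBIM37, plus strand) with 6 annotated transcripts, and RefSeq lists 3 starts for it. *Scin* (ENSMUSG00000002565) lies on chromosome 12 at 40786356 to 40860815 (minus strand). The windows are the 250 bases before each start, from RefSeq (GRCm38.p6), each matched at 1 place in NCBIM37. They are chr2:35111629-35111878, chr2:35122014-35122263 and chr2:35137650-35137899 on the plus strand for *Gsn*, and chr12:40860816-40861065 on the minus strand for *Scin*. Capitals mark matches on either strand to the GC box (GGGCGG) and to the core bound by RBPJ, the DNA-binding factor of Notch signalling (TGGGAA).
Gsn start 1: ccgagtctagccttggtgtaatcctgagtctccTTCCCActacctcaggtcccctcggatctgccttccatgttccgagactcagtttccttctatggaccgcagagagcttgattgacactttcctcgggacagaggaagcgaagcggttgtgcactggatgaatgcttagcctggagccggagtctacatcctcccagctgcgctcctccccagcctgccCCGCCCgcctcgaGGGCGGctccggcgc
Gsn start 2: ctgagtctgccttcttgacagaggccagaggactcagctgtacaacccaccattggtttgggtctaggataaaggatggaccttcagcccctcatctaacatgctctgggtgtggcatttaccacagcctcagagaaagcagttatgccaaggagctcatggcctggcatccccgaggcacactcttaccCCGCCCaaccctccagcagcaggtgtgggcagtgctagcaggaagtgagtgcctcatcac
Gsn start 3: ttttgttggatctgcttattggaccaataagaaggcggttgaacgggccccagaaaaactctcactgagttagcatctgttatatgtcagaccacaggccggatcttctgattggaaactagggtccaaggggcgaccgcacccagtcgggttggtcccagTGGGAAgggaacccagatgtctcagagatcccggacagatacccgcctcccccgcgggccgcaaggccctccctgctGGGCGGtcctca
Scin start: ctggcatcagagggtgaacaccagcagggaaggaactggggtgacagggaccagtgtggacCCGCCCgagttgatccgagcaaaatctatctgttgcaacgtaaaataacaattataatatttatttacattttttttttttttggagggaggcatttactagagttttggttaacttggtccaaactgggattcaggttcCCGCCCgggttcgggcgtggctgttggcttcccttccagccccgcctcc

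Each of the 4 windows held at least 1 GC box, a match that 32.7% of the 32851 promoter windows of this length contained. The RBPJ core occurred before *Gsn* starts 1 and 3 and was in 21.6% of all windows. None of the 4 windows matched the AP-1 site TGANTCA, the TATA box TATAAA or the CArG box, which were found in 6.75%, 12.4% and 1.47% of all windows. The counts do not separate the 3 *Gsn* starts, and these matches are descriptions of the sequence only.

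**Figure D1:**
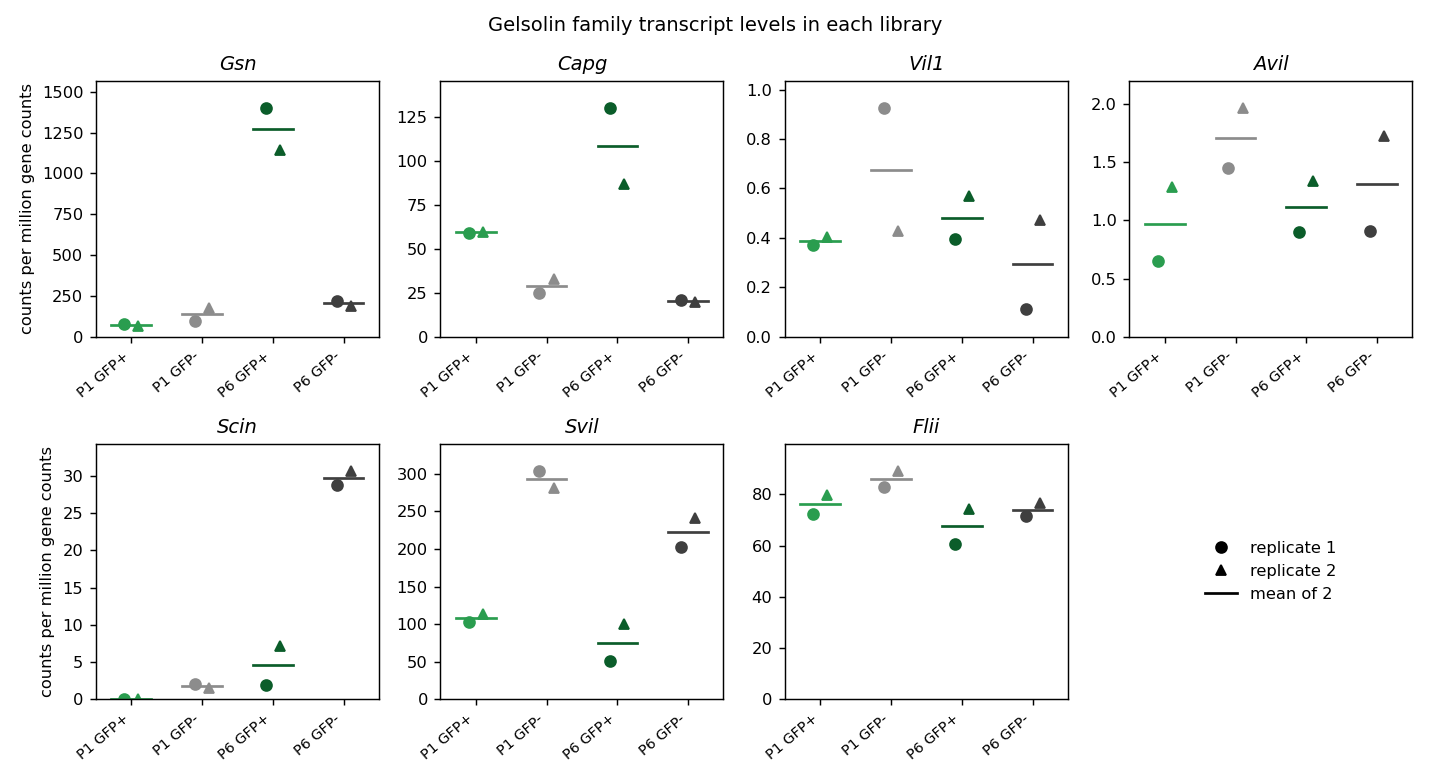
Level of each gelsolin family gene in the 8 libraries, in CPM on a linear axis from 0 that differs between panels; circles are replicate 1, triangles replicate 2 and lines the mean of 2. *Gsn* in the P6 GFP+ libraries (1398 and 1146) lies above all other libraries, *Scin* is at 0 in both P1 GFP+ libraries, and *Capg* is higher in GFP+ than in GFP- cells at both ages.

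*Gsn*, whose product severs and caps filaments in the cytoplasm and is also secreted into plasma, was at 74.6 and 67.7 CPM in P1 GFP+ cells. It was at 98.7 and 176 CPM in P1 GFP- cells and at 220.0 and 188 CPM in P6 GFP- cells. In P6 GFP+ cells it reached 1398 and 1146 CPM. The order was thus P1 GFP+, P1 GFP-, P6 GFP- and P6 GFP+, with no overlap between groups, but the gap between the closest P1 GFP- and P6 GFP- libraries was smaller than the distance between the 2 P1 GFP- libraries.

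The mean level of *Gsn* was 1.93-fold higher in GFP- than in GFP+ cells at P1 (137 ± 54.4 against 71.1 ± 4.89 CPM, SD, n = 2) and 6.24-fold higher in GFP+ than in GFP- cells at P6 (1272 ± 178 against 204 ± 22.9 CPM, SD, n = 2). Between the ages it was 17.9-fold higher at P6 in GFP+ cells and 1.49-fold higher at P6 in GFP- cells. The fitted log2 difference between the ages in GFP+ cells was 4.25, and 4.07 or 4.42 without P6 GFP+ replicate 1 or 2. The size of the P1 difference rested largely on P1 GFP- replicate 2, since the fitted log2 difference was -0.84 with both libraries and -0.38 without that one. That library also held 638 CPM of summed neuron markers against 185 CPM in P1 GFP- replicate 1. The part of this difference in the *Gsn* levels was not tested. At P6 the GFP+ library with the higher sums of fibroblast, Schwann cell and endothelium markers was the one with less *Gsn* (1146 CPM). The part of those cells in the *Gsn* level was not tested.

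Markers of glia were examined beside *Gsn* because Schwann cell markers did not separate the fractions at P6. Their sum was 1074 and 2187 CPM in the P6 GFP+ libraries, 1352 to 1547 CPM in P6 GFP- cells and 405 to 516 CPM in P1 GFP+ cells. In P6 GFP+ replicate 2, where this sum was higher, *Gsn* was at 0.820 times its level in replicate 1. The part of glia in the level of *Gsn* was not tested.

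*Capg* (ENSMUSG00000056737; chromosome 6, 72494385 to 72512977, plus strand), the member that caps filament ends without severing, was enriched in GFP+ cells at both ages. Its level was 58.9 and 59.6 CPM in P1 GFP+ cells and 24.9 and 32.8 CPM in P1 GFP- cells. At P6 it was 130 and 86.9 CPM in GFP+ cells and 20.9 and 19.4 CPM in GFP- cells. The GFP+ libraries were above the GFP- libraries at both ages. The log2 difference was 1.14 ± 0.14 (SE) at P1 (p-adj = 0.00112) and 2.42 ± 0.25 at P6 (p-adj = 0.00246), and the one at P6 was over 4-fold.

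The log2 difference of *Capg* between the fractions at P1 was 1.13 without P1 GFP+ replicate 1. At P6 it was 2.54 and 2.35 without P6 GFP- replicate 1 or 2. Between the ages, the log2 difference of *Capg* was 0.97 ± 0.22 in GFP+ cells (p-adj = 0.0400) and -0.32 ± 0.17 in GFP- cells (p-adj = 0.219), P6 over P1. The 2 P6 GFP+ libraries differed 1.49-fold, and the difference in GFP+ cells was 1.25 without replicate 2 and 0.62 without replicate 1. A fit that leaves 1 library in a group takes its spread from the other libraries alone. The values with 1 library left out therefore carry no p-value and cannot show whether a call holds. The test of whether the GFP+ to GFP- ratio changed with age gave a log2 value of 1.27 ± 0.31 (p-adj = 0.0537). The log2 value was 1.55 without P6 GFP+ replicate 2 and 0.91 without P6 GFP+ replicate 1. The sum of 10 macrophage markers was 17.0 to 19.3 CPM in GFP+ cells against 152 to 192 in GFP- cells at P1 and 45.1 to 76.8 against 336 to 359 at P6, so it was lower in GFP+ cells at each age and higher at P6 than at P1 in both fractions. The part of macrophages in the level of *Capg* was not tested.

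*Scin* encodes a calcium-dependent severing protein first described in secretory cells. It had 0 counts in both P1 GFP+ libraries, which for 3 counts in their 70721167 gene counts allows up to 0.0424 CPM. In P1 GFP- cells it had 78 and 93 counts (2.06 and 1.47 CPM). At P6 it was at 1.91 and 7.16 CPM in GFP+ cells and at 28.8 and 30.6 CPM in GFP- cells. GFP- libraries were above GFP+ libraries at both ages, and the 2 P6 GFP+ libraries differed 3.74-fold from each other.

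Relative to the allowed level in P1 GFP+ cells, *Scin* was at least 41.6-fold higher in P1 GFP- cells. The fit gave p-adj = 0.000918, but *Scin* passed the filter on low counts only through the GFP- libraries. That p-value is therefore a description and not support for the difference. In GFP- cells *Scin* rose between P1 and P6 by 4.28 ± 0.21 on the log2 scale (p-adj = 0.00011), a 16.8-fold difference in mean CPM. At P6 the log2 difference between the fractions was -2.69 ± 0.54, GFP+ over GFP- (p-adj = 0.0162), which did not pass the limit of 0.01. It was -3.93 without P6 GFP+ replicate 2 and -2.03 without P6 GFP+ replicate 1. In GFP+ cells the mean P6 level was at least 107-fold above the level allowed at P1, and at least 45.1-fold in the lower of the 2 libraries, with p-adj = 0.0189 and again no call. Here too *Scin* passed the filter only through the group where it was high. The test of a change of the ratio with age gave p-adj = 0.135 for *Scin*.

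Cartilage and bone markers were compared with *Scin* over the same libraries. Their sum was 5668 to 7115 CPM in P1 GFP+ cells, 18498 to 18663 CPM in P1 GFP- cells, 6090 to 10042 CPM in P6 GFP+ cells and 41189 to 44831 CPM in P6 GFP- cells. Most of this sum was *Col2a1* in every library, at 5147 and 6521 CPM in P1 GFP+ cells and 34336 and 31825 CPM in P6 GFP- cells. *Acan*, a proteoglycan of cartilage, was at 0.284 and 0.402 CPM in P1 GFP+ cells, 9.76 and 12.0 CPM in P1 GFP- cells, 3.32 and 21.4 CPM in P6 GFP+ cells and 133 and 149 CPM in P6 GFP- cells. *Matn1* of the same list went the other way in GFP- cells, from 14.1 and 19.7 CPM at P1 to 5.72 and 5.38 CPM at P6. Of the 7 markers, 5 rose and 1 fell with age in GFP- cells at p-adj under 0.01 (7.38% of all genes in either direction). The part of cartilage cells in the levels of *Scin* was not tested.

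*Svil* (ENSMUSG00000024236), which links actin and myosin II to membranes, was lower in GFP+ cells. Its level was 103 and 113 CPM in P1 GFP+ cells and 303 and 282 CPM in P1 GFP- cells. At P6 it was 51.0 and 99.9 CPM in GFP+ cells and 203 and 242 CPM in GFP- cells. All GFP+ libraries lay below all GFP- libraries. The log2 difference at P1 was -1.33 ± 0.09 (p-adj = 0.000113).

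The log2 difference of *Svil* at P6 was -1.57 ± 0.33 and did not pass the limit (p-adj = 0.0175). It was -2.10 without P6 GFP+ replicate 2 and -1.13 without P6 GFP+ replicate 1. The 2 P6 GFP+ libraries differed 1.96-fold, with the higher level in replicate 2, where summed fibroblast and smooth muscle markers were also higher. The part of those cells in the level of *Svil* was not tested. Between the ages *Svil* did not pass the limit in GFP+ cells (log2 difference -0.43 ± 0.30, p-adj = 0.339) or in GFP- cells (-0.21 ± 0.12, p-adj = 0.276). In GFP+ cells this value depended on the P6 library left out, at -0.96 without replicate 2 and -0.047 without replicate 1.

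*Flii* (ENSMUSG00000002812; chromosome 11, 60527625 to 60540765, minus strand), which also acts in the nucleus as a transcriptional cofactor, varied least among the 4 groups. Its means were 76.1 ± 5.40 CPM in P1 GFP+ cells, 86.0 ± 4.48 in P1 GFP- cells, 67.6 ± 9.59 in P6 GFP+ cells and 74.1 ± 3.54 in P6 GFP- cells (SD, n = 2). No comparison of *Flii* passed the limit, with p-adj from 0.513 to 0.895. The log2 differences were -0.07 ± 0.09 at P1 and -0.14 ± 0.16 at P6, GFP+ over GFP-. Its exons share 64 bases, 1.27% of its exon length, with *Llgl1* on the opposite strand.

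*Vil1* and *Avil* had few counts in every library. *Vil1* (ENSMUSG00000026175; chromosome 1, 74455950 to 74482133), known from the microvilli of gut and kidney epithelium, had 7 to 35 counts in a library. *Avil* (ENSMUSG00000025432; chromosome 10, 126437765 to 126458050), known from sensory neurons, had 16 to 124 counts. In the P6 GFP- libraries the 95% Clopper-Pearson intervals of *Vil1* were 0.0456 to 0.234 and 0.323 to 0.667 CPM, so libraries of 1 group differed by more than counting error. Neither gene passed the limit in any comparison (p-adj 0.319 to 0.494 for *Vil1* and 0.155 to 0.761 for *Avil*). The fitted log2 differences at P1 were -0.66 ± 0.51 and -0.77 ± 0.40, so the data with 2 libraries a group do not settle a difference of this size. *Vil1* shares 50 exon bases with *Usp37* and *Avil* shares 165 with *Tsfm*, 1.41% and 4.86% of their exon lengths, on the opposite strand. No strand setting of the counting is stated, so reads of these stretches cannot be assigned to one gene.

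**Figure D2:**
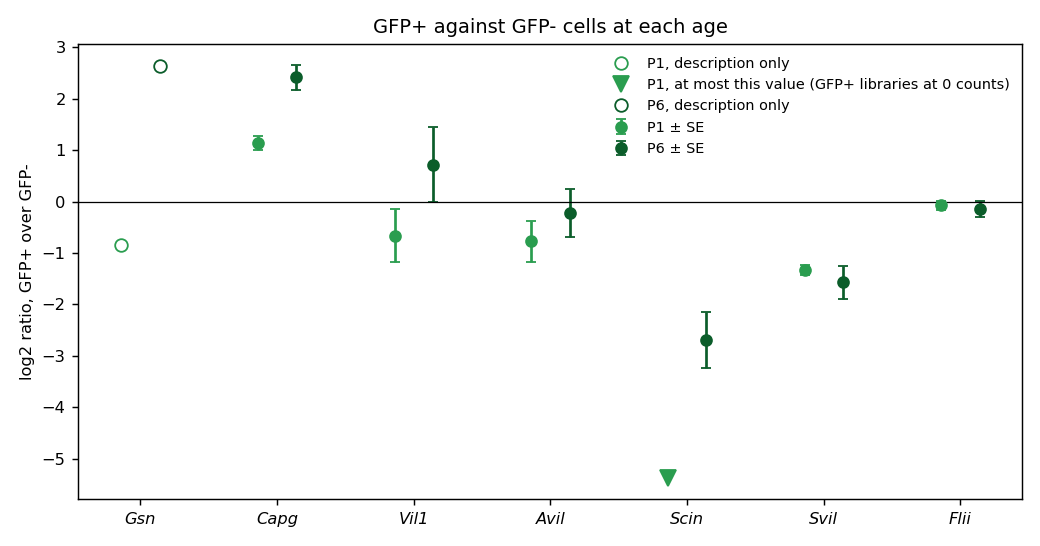
Log2 ratio of GFP+ over GFP- cells for the 7 members at P1 (light green) and P6 (dark green) from the edgeR fits, with bars of 1 SE; open circles for *Gsn* are descriptions without a test, and the triangle for *Scin* at P1 is an upper bound. *Capg* is above 0 and *Scin* and *Svil* are below 0 at both ages, *Flii* is close to 0, and *Gsn* goes from -0.84 to 2.64.

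Of the 6 members other than *Gsn*, all passed the filter on low counts in each comparison. Where P1 GFP+ cells were compared with another group, *Scin* did so only through that other group. Its place in the counts for those comparisons describes the data and is not a test. At P1, 3 of 6 differed between the fractions at p-adj under 0.01, while 37.3% of all genes tested passed the same limit. *Capg* was higher in GFP+ cells, as were 16.6% of all genes, and *Scin* and *Svil* were lower, as were 20.7% of all genes. At P6, 1 of 6 (*Capg*) passed, against 12.9% of all genes. With 1 library left out this number shifted both ways, as did the number of all genes. A fit with a lone library in a group cannot show whether a call holds, so those counts are not given. Between P1 and P6, 1 of 6 (*Scin*) passed in GFP- cells, against 7.38% of all genes. In GFP+ cells edgeR called 0 of 6 between the ages, against 4.81% of all genes. The 2 with an unadjusted p under 0.05 (38.2% of all genes) were *Capg* and *Scin*, and DESeq2 called 2 of 6 (17.6% of all genes). The edgeR counts in GFP+ cells also shifted when 1 library was left out, for the members and for all genes. For the change of the ratio with age edgeR also called 0 of 6, against 1.93% of all genes. There were 2 of 6 at an unadjusted p under 0.05 (21.2% of all genes), and DESeq2 called 2 of 6 (7.39% of all genes).

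The libraries of the compared groups did not overlap for 6 of 6 members at P1, where 79.3% of all genes did not overlap. The corresponding numbers were 3 of 6 and 73.4% at P6, 3 of 6 and 70.3% between the ages in GFP+ cells, and 4 of 6 and 69.4% in GFP- cells. These 4 comparisons share libraries and are not independent of each other.

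Levels of different members were compared as CPM per kilobase of the union of exons. *Gsn* (23.8 and 21.6) and *Capg* (23.3 and 23.6) were at like levels in P1 GFP+ cells, followed by *Flii* (14.3 and 15.9) and *Svil* (9.69 and 10.6). In P1 GFP- cells *Gsn* (31.5 and 56.0) was highest, followed by *Svil* (28.5 and 26.5), *Flii* (16.4 and 17.7) and *Capg* (9.83 and 13.0). In the P6 GFP+ libraries the *Gsn* level was 446 and 365 against 51.3 and 34.4 for *Capg*. The summed level per kilobase of the 7 members was 71.4 and 72.1 in P1 GFP+, 87.6 and 114 in P1 GFP-, 515 and 427 in P6 GFP+ and 122 and 116 in P6 GFP- cells.

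The share of *Gsn* in the summed level per kilobase was 33.3% and 29.9% in P1 GFP+ cells and 86.6% and 85.6% in P6 GFP+ cells. In GFP- cells it was 35.9% and 49.0% at P1 and 57.7% and 51.5% at P6. *Capg* made up 32.6% and 32.7% of the family level in P1 GFP+ cells and 9.96% and 8.05% in P6 GFP+ cells, although its own level per kilobase was higher at P6. *Scin* reached 7.86% and 8.75% in P6 GFP- cells and stayed under 1% in all other libraries. The order of *Gsn* and *Capg* in P1 GFP+ cells depended on the length used, as the longest transcript in place of the union gave a *Capg* mean of 42.3 and a *Gsn* mean of 26.8.

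**Figure D3:**
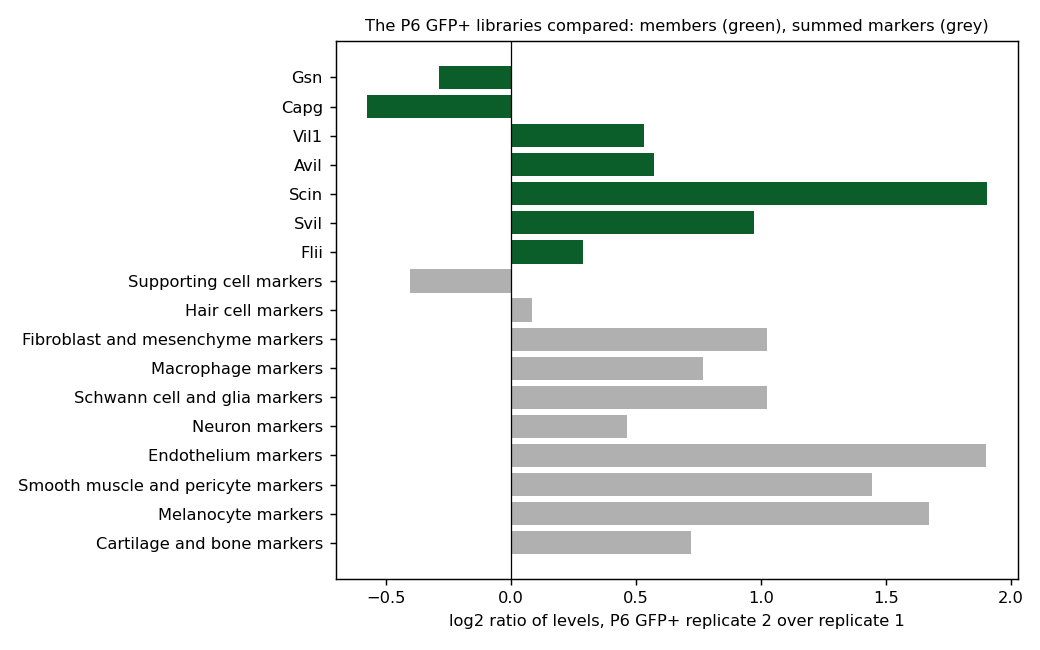
Ratio of P6 GFP+ replicate 2 over replicate 1 on a log2 axis for each member (green) and for the summed CPM of each marker list (grey). *Scin* (3.74-fold) and *Svil* (1.96-fold) were higher in replicate 2, as were the sums of the endothelium, melanocyte, smooth muscle, fibroblast and Schwann cell markers. *Gsn* (0.820-fold), *Capg* (0.670-fold) and the sum of the supporting cell markers (0.756-fold) were lower, but *Prox1* and *Notch1* of that list were higher.

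The genes with a pattern most like that of *Gsn* over the 8 libraries were taken by Pearson's r of log2(CPM + 0.5) among 10910 genes with a mean of at least 10 CPM over the libraries. They were *Cdo1* (cysteine dioxygenase, r = 0.997), *Hsdl2* (0.994), *Ppard* (a nuclear receptor, 0.990), *Pla2g5* (a secreted phospholipase, 0.990), *Hsd17b7* (an enzyme of cholesterol synthesis, 0.989) and *Tmem171* (0.986). The points share their libraries and the r values describe these 8 libraries only. *Cdo1* was at 18.3 and 27.7 CPM in P1 GFP+ and GFP- cells and at 179 and 36.6 CPM in P6 GFP+ and GFP- cells. *Tmem171* went from 1.46 to 33.2 CPM in GFP+ cells, whereas *Hsdl2* went only from 26.6 to 47.2 CPM, so the likeness is one of shape and not of size.

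Genes that act with the family on actin were followed in 7 lists of 56 genes in all. At P1, 11 of 56 were higher and 21 of 56 lower in GFP+ cells at p-adj under 0.01, against 16.6% and 20.7% of all genes, with a median log2 difference of -0.21 against 0.01 over all genes. At P6, 8 were higher and 9 lower, against 12.9% of all genes in either direction (median -0.11 against -0.02). Between the ages 5 rose and 2 fell of the 55 tested in GFP+ cells (4.81% of all genes in either direction, median 0.29 against 0.00), and 2 rose and 3 fell of 56 in GFP- cells (7.38% of all genes, median 0.18 against -0.02). The counts of the single lists stand against the same shares. For the change of the ratio with age edgeR called 0 of 56 (1.93% of all genes). There were 17 at an unadjusted p under 0.05 (21.2% of all genes) and 3 called by DESeq2 (7.39% of all genes). The counts of the 56 at P6 and between the ages in GFP+ cells shifted when P6 GFP+ replicate 1 or 2 was left out, as did those of all genes.

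The nearest relative outside the members was *Vill* (villin-like), a gene with gelsolin repeats and a headpiece. It was enriched in GFP+ cells at P1, 307 ± 24.8 against 9.75 ± 4.43 CPM (SD, n = 2; log2 difference 5.06 ± 0.32, p-adj = 7.5e-05), and at P6, 157 ± 21.4 against 8.34 ± 0.195 CPM (4.23 ± 0.20, p-adj = 0.000645). *Ablim1*, which carries a villin headpiece, was lower in GFP+ cells at P1 (log2 difference -2.67 ± 0.15, p-adj = 5.53e-05). *Epb4.9* (dematin), another headpiece protein, rose with age in GFP+ cells from 41.3 ± 0.360 to 109 ± 14.9 CPM (log2 difference 1.49 ± 0.15, p-adj = 0.00573). Of the 2 partners of *Flii*, *Lrrfip1* was lower in GFP+ cells at P1 (-0.89 ± 0.09, p-adj = 0.000498).

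Among the 15 other severing and depolymerizing factors, 2 were higher and 5 lower in GFP+ cells at P1, and 1 was higher and 2 lower at P6. *Wdr1*, which helps cofilin take filaments apart, was higher at P1 (log2 difference 1.22 ± 0.12, p-adj = 0.000423). *Cap2*, a cyclase-associated protein, was higher at P6 (1.86 ± 0.18, p-adj = 0.0022) and rose with age in GFP+ cells (1.85 ± 0.18, p-adj = 0.00496), with a level of 26.3 ± 0.412 CPM. *Coro1a*, a coronin of blood cells, was lower in GFP+ cells at P1 (-3.88 ± 0.26) and P6 (-2.88 ± 0.26), as were the macrophage markers. The part of macrophages in the level of *Coro1a* was not tested. *Coro2a* fell with age in GFP+ cells from 13.4 ± 0.873 to 1.62 ± 0.0177 CPM (p-adj = 0.00328), and *Coro2b* fell by 0.70 on the log2 scale in GFP- cells (p-adj = 0.0055).

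The 11 other capping proteins held 3 that were higher and 4 that were lower in GFP+ cells at P1, and 2 that were higher at P6. *Tmod1*, a tropomodulin that caps the slow-growing end, was at 369 ± 9.03 against 30.4 ± 21.1 CPM at P1 (log2 difference 3.70 ± 0.48, p-adj = 0.00134) and at 583 ± 4.70 against 51.9 ± 5.57 CPM at P6 (3.48 ± 0.20, p-adj = 0.000762). *Tmod2* fell with age in GFP+ cells (-1.97 ± 0.23, p-adj = 0.00774) and in GFP- cells (-1.03 ± 0.14, p-adj = 0.00388). *Add3*, an adducin of the membrane skeleton, was lower in GFP+ cells at P1 (-2.88 ± 0.13, p-adj = 2.56e-05) and rose with age in GFP+ cells (1.94 ± 0.20, p-adj = 0.0056).

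All 8 bundling proteins passed the limit at P1, 4 higher and 4 lower in GFP+ cells, and 3 were higher and 3 lower at P6. *Pls1* (plastin 1), a bundler of stereocilia and microvilli, was higher in GFP+ cells at P1 (log2 difference 2.26 ± 0.40, p-adj = 0.00468) and P6 (2.74 ± 0.20, p-adj = 0.00109). *Lcp1* (plastin of blood cells) was lower at P1 (-3.21 ± 0.14, p-adj = 2.7e-05) and P6 (-1.56 ± 0.26, p-adj = 0.00932) and rose with age in GFP+ cells (2.28 ± 0.29, p-adj = 0.00931), where the macrophage markers also had a higher sum at P6. The part of macrophages in the level of *Lcp1* was not tested. Of 12 genes for monomer binding and branching, 5 were lower in GFP+ cells at P1 against 3 at P6, among them *Arpc1b* of the Arp2/3 complex (-2.83 ± 0.09 and -1.83 ± 0.27). In GFP- cells *Arpc5* rose by 0.82 on the log2 scale (p-adj = 0.00334) and *Tmsb10* fell by 0.96 (p-adj = 0.00175) between the ages. Among 4 actins, *Actg1* was higher in GFP+ cells at P1 (0.79 ± 0.14, p-adj = 0.00424).

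**Figure D4:**
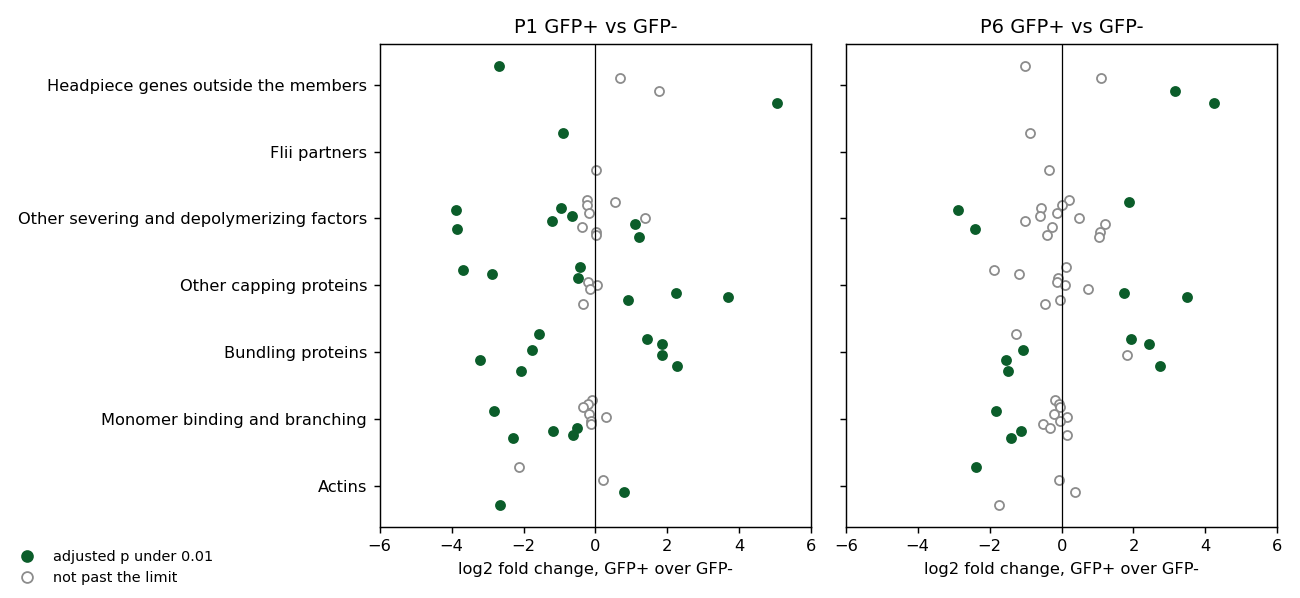
Log2 fold change of GFP+ over GFP- cells at P1 (left) and P6 (right) for the genes of the 7 actin lists, one point per gene, filled where the adjusted p was under 0.01. At P1, 11 genes were filled on the right of 0 and 21 on the left, and at P6 the numbers were 8 and 9; *Vill* is the point at 5.06 and 4.23 in the top list.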

How the data were processed

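Total RNA of sorted cells was made into TruSeq libraries and sequenced paired-end. An extra first amplification was reserved for samples with fewer cells than the study states for freshly dissected cochleas. The authors aligned reads to mm9 (NCBIM37), and what they deposited is the raw count of each Ensembl gene, not normalized; the submitters' processing notes name TopHat 1.4.0, HTSeq and DESeq 1.9.2. The counting mode and strand setting are not given in the sources used here. Rows for reads on no gene (13.8% to 25.6% of each library), on several genes (2.05% to 2.53%) or at several places (7.41% to 9.60%) were left out of totals and tests, so genes with near-identical copies are uncertain.

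Members were matched by symbol in NCBIM37, which held 34391 of the 36536 genes; neither the members nor the lists are independent of earlier results on these data, which were known when both were chosen. CPM is the count per 1000000 counts on genes, of which a library held 17769024 to 67695039. Intervals and the limit set by 3 counts for a count of 0 cover counting error only. Each comparison was fitted on its own 4 libraries (the interaction of age and fraction on all 8) with edgeR 4.0.16 in R 4.3.3, using filterByExpr (minimum count 10, total 15), TMM and the quasi-likelihood test, Benjamini-Hochberg adjusted over all genes tested (17213 to 19233), with a limit of 0.01 for p and p-adj. The SE of a log2 difference comes from the same fit. Genes named from the actin lists were, per list and comparison, the called gene with the largest rise and fall and a mean of at least 10 CPM in the higher group. The procedure was tested on simulated counts with known changes. Alternatives were DESeq2 1.42.0 size factors, library totals, the DESeq2 test, no filter, all 8 libraries, a replicate block, a limit of 0.05, leaving out each library and the longest transcript as length. The study's quantitative PCR and cultures were not analysed here.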

Additional observations from a re-analysis of the deposited data

Results flagged for a closer look

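The difference of *Gsn* between the fractions had opposite signs at the 2 ages: the log2 difference, GFP+ over GFP-, was -0.84 at P1 and 2.64 at P6. Each GFP+ library lay below both GFP- libraries at P1 and above both at P6. The fractions did not overlap for 79.3% of all genes at P1 and 73.4% at P6. The change between the ages was not tested, because it was the reason for choosing these genes.

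The difference of *Capg* between the ages had opposite signs in the 2 fractions: the log2 difference, P6 over P1, was 0.97 in GFP+ cells and -0.32 in GFP- cells. Neither passed the limit of 0.01 in edgeR (p-adj = 0.0400 and 0.219). In neither fraction did the libraries of the 2 ages overlap, as was so for 70.3% of all genes in GFP+ cells and 69.4% in GFP- cells. The test of the change of the ratio gave p-adj = 0.0537 in edgeR and 0.00665 in DESeq2.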

How the results depend on the processing

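The directions of *Capg*, *Scin* and *Svil* between the fractions at P1 and P6 held under every alternative run for them. The calls of *Capg* and *Svil* at P1 held under the alternatives that kept all libraries. That of *Scin* at P1 describes the data and is not a test, since it passed the filter only through the GFP- libraries. At P6 the number of members called was 1. It was 3 with DESeq2, without the filter, with all 8 libraries, with the replicate block or at a limit of 0.05. Between the ages in GFP+ cells it was 0. It was 2 with DESeq2, without the filter or at 0.05, and 1 with all 8 libraries or the replicate block. For the interaction it was 0, and 2 with DESeq2 or without the filter. Genes called of all tested were 2363 at P6 (4891 with DESeq2, 5309 without the filter, 5157 with all 8 libraries, 6122 at 0.05), 828 in GFP+ cells between the ages (3037, 4090, 2361 and 3511), 1397 in GFP- cells (3043, 3993, 769 and 3619) and 372 for the interaction (1422 with DESeq2, 2400 without the filter, 1228 at 0.05, 151 with the replicate block). Leaving out 1 library gave 3675 to 9798 genes at P1, where 6972 were called, 0 (without P6 GFP- replicate 2) to 7767 (without P6 GFP+ replicate 2) at P6, 137 to 7531 in GFP+ cells, 249 to 3029 in GFP- cells and 28 to 1407 for the interaction; the lone library left in a group is then assumed to vary like the rest, and the cause of the shifts was not tested.

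The labels do not say whether samples with the same replicate number were paired. The replicate differences correlated across 19233 genes at 0.0214 (P1), 0.0855 (P6), -0.0835 (GFP+) and -0.277 (GFP-). These values cannot decide whether samples were paired, because a group has only 1 replicate difference per gene. A crossed replicate block in GFP- cells, chosen after seeing the data, called 3063 genes and 1 member.

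Signs turned only in comparisons where the member passed no limit. With 1 library left out, the log2 difference of *Avil* ranged from -0.56 to 0.29 at P6, from -0.072 to 0.84 between the ages in GFP+ cells and from -0.69 to 0.18 in GFP- cells. That of *Flii* ranged from -0.26 to 0.031 at P6, from -0.20 to 0.033 in GFP+ cells, from -0.087 to 0.015 in GFP- cells and from -0.21 to 0.025 for the interaction, and that of *Svil* from -0.78 to 0.13 for the interaction. *Flii* was also at 0.0071 without the filter and 0.0055 with all 8 libraries in GFP- cells, and at 0.046 for the interaction with library totals. Over the alternatives *Gsn* ranged from -1.22 to -0.38 at P1 and from 2.51 to 2.82 at P6. Library totals moved the median of all genes by -0.10 (P1), -0.19 (GFP- cells) and 0.12 (interaction). *Vil1* and *Avil* rest on few counts, but the *Vil1* libraries of P6 GFP- cells and the *Scin* libraries of P6 GFP+ cells differed beyond counting error.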

Other observations

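Other cell types were followed by their marker lists, with the number lower in GFP+ cells at p-adj under 0.01 in edgeR and the number called by DESeq2 in either direction. Neuron markers summed to 49.9 to 50.2 CPM in P1 GFP+ cells and 185 to 638 CPM in P1 GFP- cells, and edgeR found 6 of 7 lower (DESeq2 7). At P6 edgeR called 0 of 7 (5 at an unadjusted p under 0.05 and 1 by DESeq2), with sums of 72.8 to 101 CPM in GFP+ and 103 to 151 CPM in GFP- cells. Melanocyte markers, which belong to the stria vascularis, summed to 0.938 to 2.61 CPM in P1 GFP+ cells, 249 to 371 CPM in P1 GFP- cells, 25.9 to 82.8 CPM in P6 GFP+ cells and 502 to 647 CPM in P6 GFP- cells. At P1 4 of 4 were lower (DESeq2 4) and at P6 2 of 4 (DESeq2 3).

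All 7 endothelium markers were lower in GFP+ cells at P1 (29.9 to 34.8 against 346 to 426 CPM). At P6 edgeR called 0 of 7 (1 at an unadjusted p under 0.05 and 1 by DESeq2), with 78.6 and 293 CPM in the 2 GFP+ libraries against 344 to 351 CPM. Of 10 fibroblast markers, 8 were lower at P1 (DESeq2 9) and 5 at P6 (DESeq2 9). For 5 smooth muscle and pericyte markers the numbers were 2 at P1 (DESeq2 2) and 1 at P6 (DESeq2 4), so the order of the ages depended on the tool. Cartilage and bone markers were lower in 6 of 6 tested at P1 (DESeq2 6) and 2 of 7 at P6 (DESeq2 6, and 7 at an unadjusted p under 0.05). Of 7 Schwann cell and glia markers, 4 were lower and 1 was higher at P1 (DESeq2 called 5), and 1 was higher at P6 (DESeq2 1). *Sox10*, which supporting cells also express, was at 275 and 286 CPM in P1 GFP+ cells and 95.9 and 148 CPM in P1 GFP- cells. Of 9 hair cell markers, 6 were higher in GFP+ cells at each age (DESeq2 6). Over all genes edgeR called 37.3% at P1 and 12.9% at P6, and DESeq2 called 7832 of 18682 genes at P1 and 4891 of 18294 at P6. The share of all genes at an unadjusted p under 0.05 was not computed for P1 and P6.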
